A study of Mus musculus with 40 samples.

Results

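The Toll-like receptor genes described here were the 10 genes of the cortical count table named *Tlr1*, *Tlr2*, *Tlr3*, *Tlr4*, *Tlr5*, *Tlr6*, *Tlr7*, *Tlr8*, *Tlr9* and *Tlr13*, out of 43346 genes in the table. They were chosen by name, with earlier results of these data known. The products of 5 of them, *Tlr1*, *Tlr2*, *Tlr4*, *Tlr5* and *Tlr6*, act mainly at the cell surface, and those of the other 5, *Tlr3*, *Tlr7*, *Tlr8*, *Tlr9* and *Tlr13*, act mainly in endosomes. All 10 passed the filter on low counts and were among the 21253 genes tested.

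The study sequenced polyadenylated RNA from the cortex of mice carrying the *Trem2* H157Y knock-in allele, a missense change at the site where the microglial receptor TREM2 is cleaved. In the amyloid cohort all 20 mice were hemizygous 5xFAD mice, whose transgenes, mutant human APP among them, are driven in neurons by the Thy1 promoter, and they were 8.5 months old. In the non-amyloid cohort the 20 mice carried no 5xFAD transgene and were 6 months old. Each cohort held 10 WT mice and 10 mice homozygous for H157Y (Hom), littermates within a cohort, with 5 females and 5 males per group and no treatment. The knock-in was made with CRISPR/Cas9, 2 founder lines existed, and per the study's text its mice descended from 1 of them unless stated otherwise. Whole cortex was used, so that fewer cells of a type and less RNA per cell cannot be told apart. The cohorts differed in age, transgene and breeding, and these cannot be told apart in any comparison between cohorts.

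Toll-like receptors recognise molecules of microbes and of damaged cells through an ectodomain of leucine-rich repeats and signal through a cytosolic TIR domain. Surface receptors bind mainly lipids and proteins: TLR2 pairs with TLR1 or TLR6 for lipoproteins, TLR4 binds lipopolysaccharide with CD14 and MD-2, and TLR5 binds flagellin. Endosomal receptors bind nucleic acids: TLR3 double-stranded RNA, TLR7 and TLR8 single-stranded RNA, TLR9 unmethylated CpG DNA, and mouse TLR13 bacterial ribosomal RNA. All but TLR3 signal through the adaptor MyD88, while TLR3 uses TRIF, and the pathways lead to NF-κB, interferon regulatory factors and cytokines. In the brain, microglia express most of the family, and TLR3 is also found in astrocytes.

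Counts were adequate for most members and thin for a few. Total counts per library ranged from 41646271 to 105903846. *Tlr3* had 907 to 2439 counts per library, *Tlr7* had 196 to 1537, and *Tlr2* had 53 to 1164. *Tlr5* had 11 to 85 counts and *Tlr8* only 3 to 47, and values of these genes rest on few reads. The library of amyloid Hom replicate 19, a female, stood apart. It had the lowest total, and 0.576% of its counts fell on genes covered by exons of the opposite strand, against 0.00448% to 0.00671% in the other 39. No exon of another annotated gene overlaps those of the members except for *Tlr3*, of which 381 bases are shared with *Gm45542* on the opposite strand. Results for the amyloid Hom group are therefore given with and without this library where it changes them. *Trem2*, the knocked-in gene, was at a mean of 62.2 ± 24.4 CPM (counts scaled to library size; SD, n = 10) in amyloid WT mice and 33.9 ± 10.3 in amyloid Hom mice. It was at 10.7 ± 2.13 and 10.4 ± 1.59 CPM in non-amyloid WT and Hom mice. H157Y is a point change, so that the count of *Trem2* does not check the genotype labels.

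In mm10 the surface genes lie on chromosome 5 (*Tlr1*, chr5:64924811-64932761, and *Tlr6*, chr5:64953106-64960048, 20.3 kb apart on the minus strand), chromosome 3 (*Tlr2*, chr3:83836272-83841767), chromosome 4 (*Tlr4*, chr4:66827584-66930284) and chromosome 1 (*Tlr5*, chr1:182954788-182976044). Of the endosomal genes, 3 are X-linked. *Tlr8* (chrX:167242696-167264329) and *Tlr7* (chrX:167304929-167330558) are neighbours 40.6 kb apart, and *Tlr13* (chrX:106143204-106160493) lies elsewhere on the chromosome. *Tlr3* (chr8:45395665-45410608) and *Tlr9* (chr9:106222598-106226883) complete the set. *Tlr1* and *Tlr6* transcripts are 94.9% identical over 1076 bases and share an exact run of 229 bases. Of all 100-base windows of the longest *Tlr1* transcript 8.85% also occur in *Tlr6*, and of those of the longest *Tlr6* transcript 7.24% occur in *Tlr1*. Single reads from this stretch could be assigned to either gene. The levels of both are uncertain for this reason, by an amount that was not examined. No other pair of members shared a run longer than 18 bases.

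Promoters of 8 of the 10 members were found in the RefSeq promoter table (GRCm38.p6), which gives 250 bases before to 50 bases after a start site. Promoters are shown for *Tlr2*, which had the largest cohort difference of the family, and for *Tlr1*, *Tlr9* and *Tlr13*, which with *Tlr2* and *Tlr7* separated the WT cohorts without overlap. Each is written 5′ to 3′ on the strand of its gene. Capitals mark matches, on either strand, to the NF-κB consensus or to GAGGAA, the core bound by the myeloid factor PU.1.
*Tlr2* (chr3:83841559-83841858, minus strand): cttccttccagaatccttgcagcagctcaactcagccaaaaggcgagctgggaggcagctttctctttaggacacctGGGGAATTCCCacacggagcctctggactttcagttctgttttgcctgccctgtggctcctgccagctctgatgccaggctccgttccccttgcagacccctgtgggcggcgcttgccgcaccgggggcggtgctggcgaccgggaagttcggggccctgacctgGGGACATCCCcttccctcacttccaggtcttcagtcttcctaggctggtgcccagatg
*Tlr1* (chr5:64933509-64933808, minus strand): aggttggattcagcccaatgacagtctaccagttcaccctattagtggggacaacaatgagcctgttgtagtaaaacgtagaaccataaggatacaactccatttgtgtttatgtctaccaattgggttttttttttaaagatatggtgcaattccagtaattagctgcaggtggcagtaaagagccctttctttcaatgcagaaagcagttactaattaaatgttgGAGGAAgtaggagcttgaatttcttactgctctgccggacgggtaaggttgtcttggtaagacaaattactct
*Tlr9* (chr9:106222348-106222647, plus strand): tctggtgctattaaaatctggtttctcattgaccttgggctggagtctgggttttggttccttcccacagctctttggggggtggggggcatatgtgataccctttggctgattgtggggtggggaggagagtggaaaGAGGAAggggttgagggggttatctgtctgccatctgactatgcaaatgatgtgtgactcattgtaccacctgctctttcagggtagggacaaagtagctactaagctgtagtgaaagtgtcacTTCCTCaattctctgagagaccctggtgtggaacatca
*Tlr13* (chrX:106143025-106143324, plus strand): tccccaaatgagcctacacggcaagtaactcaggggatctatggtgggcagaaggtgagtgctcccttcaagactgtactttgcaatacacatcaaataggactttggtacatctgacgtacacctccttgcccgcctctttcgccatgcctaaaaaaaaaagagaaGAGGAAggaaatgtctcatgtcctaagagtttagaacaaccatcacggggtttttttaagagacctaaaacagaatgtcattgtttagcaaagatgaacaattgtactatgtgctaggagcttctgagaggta
The *Tlr2* window held NF-κB matches beginning 173, 172 and 8 bases before the start site (those at 173 and 172 overlap), and no GAGGAA. NF-κB matches occurred in 2 of the 8 members with a promoter, *Tlr2* and *Tlr3*, and in 8.46% of the 32851 promoters in the table. GAGGAA occurred in 4 of 8, *Tlr1*, *Tlr8*, *Tlr9* and *Tlr13*, and in 28.3% of all promoters. The interferon response core GAAANNGAA occurred in *Tlr6* and *Tlr8* and in 8.56% of all promoters. *Tlr1* and *Tlr6* each had a second start site in the table, and their second windows held no match. The second *Tlr1* window (chr5:64932650-64932949) reaches into the gene span given above, while the window shown lies outside it. A member was counted when any of its windows held a match, whereas the shares of all promoters count single windows, so the 2 are not strictly alike. These matches describe letters in the windows and were not tested against the measurements.

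Levels were compared between genes as reads per kilobase of listed gene length, scaled to library size (RPKM). In non-amyloid WT mice *Tlr3* was the most abundant member, at 4.16 ± 0.591 RPKM (SD, n = 10), followed by *Tlr7* at 1.096 ± 0.261 and *Tlr13* at 0.873 ± 0.168. *Tlr2* at 0.450 ± 0.0708 and *Tlr4* at 0.385 ± 0.101 led the surface receptors. *Tlr6*, *Tlr1* and *Tlr9* lay between 0.261 and 0.219 RPKM, *Tlr5* was at 0.0940 and *Tlr8* was lowest at 0.0429. Among neighbours in this order, *Tlr7* and *Tlr13*, *Tlr2* and *Tlr4*, *Tlr6* and *Tlr1*, and *Tlr1* and *Tlr9* differed by less than the larger of their SDs. In amyloid WT mice *Tlr3* was again highest, at 5.26 ± 0.718 RPKM, but *Tlr2* moved up to place 3 of the 10 at 2.91 ± 1.11, within the spread of *Tlr7* at 3.37 ± 1.11 and of *Tlr13* at 2.78 ± 0.777. The surface receptors together made up a median of 18% of the summed RPKM of the 10 genes in non-amyloid WT mice (range 16.04% to 21.5%) and 29.2% in amyloid WT mice (27.3% to 36.99%). In Hom mice the shares were 17.8% (16.8% to 18.5%) without amyloid and 25.5% (20.7% to 29.1%) with amyloid. Much of this shift lay in *Tlr2*, which alone made up a median of 5.77% in non-amyloid WT and 15.3% in amyloid WT mice. Its medians were 4.72% in non-amyloid Hom and 11.5% in amyloid Hom mice.

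**Figure D1:**
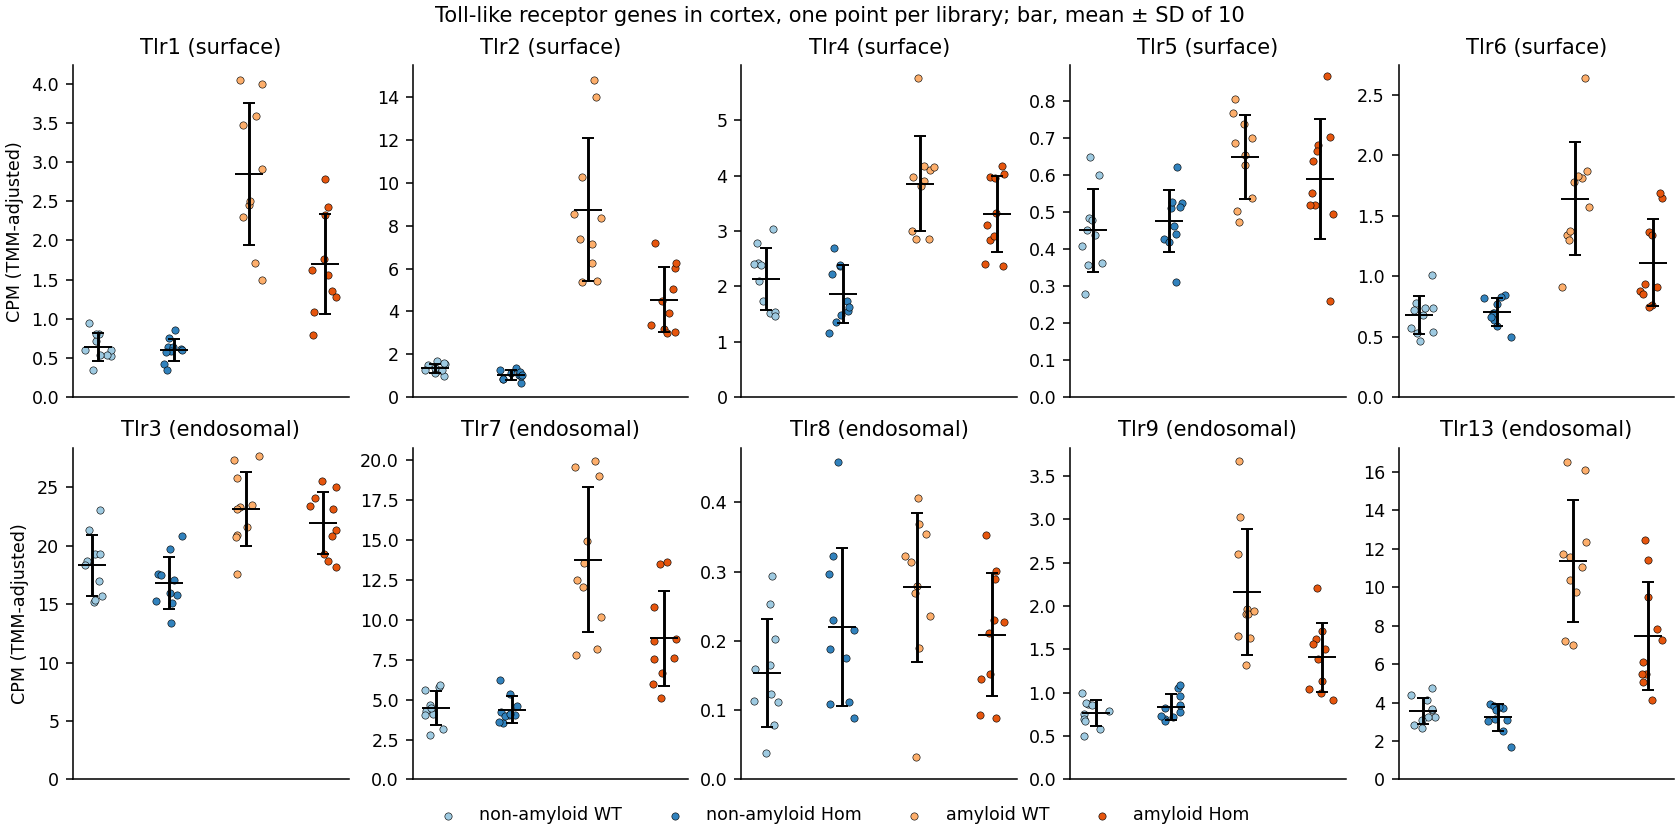
CPM of each Toll-like receptor gene (y axis, linear, from 0) in the 4 groups; points are libraries and bars the mean ± SD of 10. The amyloid WT points of *Tlr1*, *Tlr2*, *Tlr7*, *Tlr9* and *Tlr13* all lie above every non-amyloid WT point, whereas *Tlr8* overlaps in all groups.

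The comparison of cohorts asked how cortical Toll-like receptor transcripts differ between mice with and without amyloid. In WT mice 9 of the 10 members rose in the amyloid cohort, 5 of 5 surface and 4 of 5 endosomal genes, and *Tlr8* did not pass the test. Of all genes tested, 6.62% rose. The members' median log2 fold change was 1.39, against 0.00 over all genes. Ranges did not overlap between the WT groups for *Tlr1*, *Tlr2*, *Tlr7*, *Tlr9* and *Tlr13*, and 1.95% of all genes were above every non-amyloid WT library in every amyloid WT library.

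Among the surface receptors, *Tlr2* had CPM of 0.999 (lowest), 1.32 (median) and 1.68 (highest) in non-amyloid WT mice and 5.40, 7.87 and 14.8 in amyloid WT mice. Every amyloid WT library lay above every non-amyloid WT library. The fold was 6.45 (log2 2.69 ± 0.19 SE, adjusted p = 1.01e-14 by edgeR's quasi-likelihood test). *Tlr1*, the partner of *Tlr2* for triacylated lipoproteins, had CPM of 0.352, 0.600 and 0.945 in non-amyloid WT mice and 1.5, 2.71 and 4.05 in amyloid WT mice. It too separated the groups, with a log2 fold change of 2.15 ± 0.21 (adjusted p = 7.55e-11). *Tlr6*, the partner for diacylated lipoproteins, rose by log2 1.27 ± 0.17 (adjusted p = 1.77e-07), and 9 of 10 amyloid WT libraries were above all non-amyloid WT libraries. *Tlr4* rose by 0.85 ± 0.16 (adjusted p = 8.45e-05) and *Tlr5* by 0.53 ± 0.16 (adjusted p = 0.0235) on the log2 scale, both with overlapping groups. The call of *Tlr5* was lost when non-amyloid WT replicate 29 was left out (adjusted p = 0.0533).

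Among the endosomal receptors, *Tlr13* had CPM of 2.66, 3.45 and 4.75 in non-amyloid WT mice and 7.01, 11.3 and 16.5 in amyloid WT mice. *Tlr7* had 2.76, 4.37 and 5.94 against 7.79, 13 and 19.9, and *Tlr9* had 0.505, 0.767 and 0.998 against 1.32, 1.93 and 3.67. The groups did not overlap for any of these 3 genes. Their log2 fold changes were 1.67 ± 0.18, 1.62 ± 0.18 and 1.5 ± 0.16 (adjusted p = 8.39e-10, 2.32e-09 and 2.36e-09). *Tlr3*, the most abundant member, changed least among the called genes, from a mean of 18.3 ± 2.60 to 23.1 ± 3.16 CPM (log2 0.34 ± 0.08, adjusted p = 0.00547), and the groups overlapped. *Tlr8* was at 0.154 ± 0.0786 CPM in non-amyloid WT mice and 0.277 ± 0.107 in amyloid WT mice (log2 0.85 ± 0.33, adjusted p = 0.10). It was called only when amyloid WT replicate 27 was left out (adjusted p = 0.0267).

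In Hom mice 8 of 10 members rose with the amyloid cohort, against 5.71% of all genes, and *Tlr5* and *Tlr8* did not pass the test. *Tlr2* had CPM of 0.653, 1.02 and 1.36 in non-amyloid Hom mice and 3.02, 4.21 and 7.21 in amyloid Hom mice, a log2 fold change of 2.14 ± 0.18 (adjusted p = 2.25e-11). *Tlr2* and *Tlr13* were the 2 members whose Hom groups did not overlap, and 0.875% of all genes separated these groups in that direction. *Tlr1* rose by 1.5 ± 0.20, *Tlr13* by 1.21 ± 0.17 and *Tlr7* by 1.01 ± 0.18 on the log2 scale. *Tlr4* (0.83 ± 0.16), *Tlr9* (0.74 ± 0.16), *Tlr6* (0.65 ± 0.17) and *Tlr3* (0.38 ± 0.08) also rose, with adjusted p between 0.000322 and 0.00944. *Tlr5* was at log2 0.32 ± 0.16 (adjusted p = 0.223) and *Tlr8* at -0.09 ± 0.32. Without amyloid Hom replicate 19 the same number of members, 8, was called, while 967 of all genes were called in either direction, against 1395 with it.

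**Figure D2:**
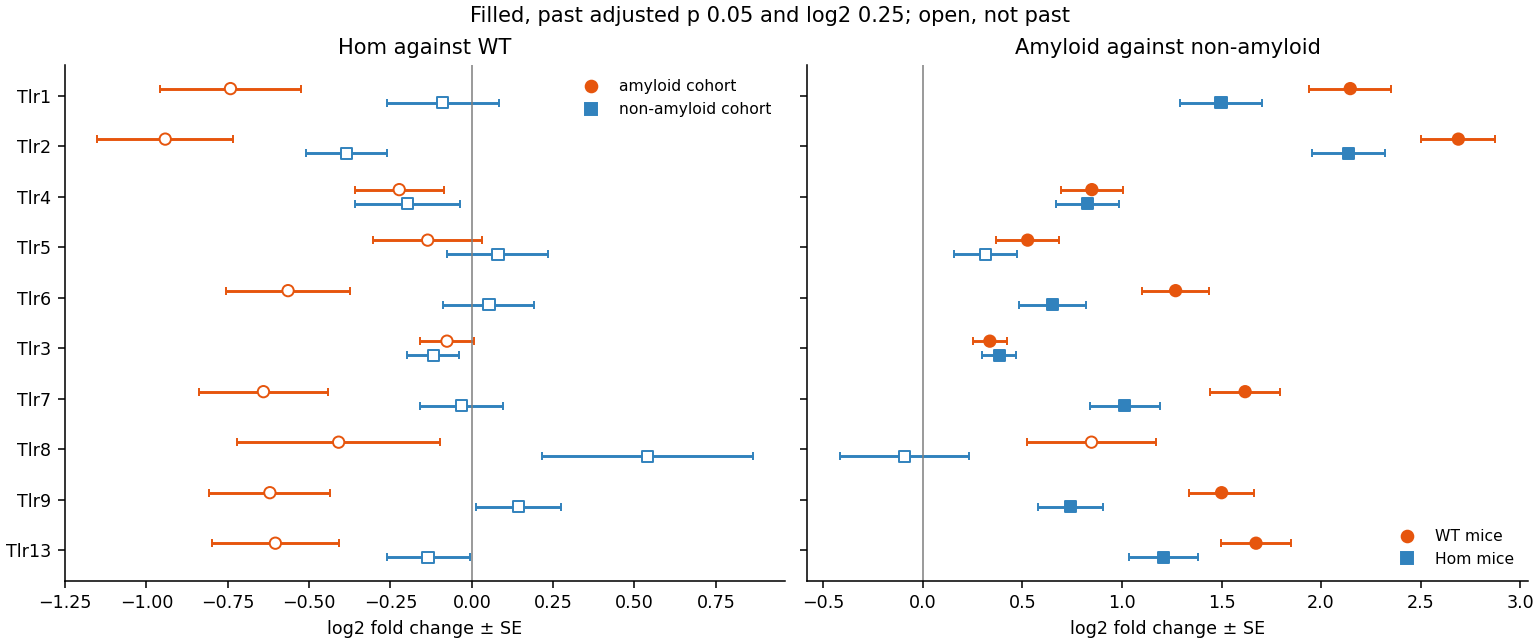
Log2 fold changes ± SE (x axis) of the 10 members: left, Hom against WT within each cohort; right, amyloid against non-amyloid within each genotype. Filled points pass an adjusted p of 0.05 and a log2 change of 0.25, which 9 members do in WT mice and 8 in Hom mice on the right and none does on the left.

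In WT mice microglial markers moved with the members. All 10 microglia markers examined, among them *P2ry12*, *Tmem119*, *Cx3cr1* and *Csf1r*, rose in the WT cohort comparison. Their summed level ran from 369.6 to 461.4 CPM in non-amyloid WT libraries and from 632 to 1434 CPM in amyloid WT libraries. In the Hom cohort comparison 8 of the 10 were called higher and 1 had an estimate below 0. *Tmem119* was at a mean of 14.2 ± 2.48 CPM in non-amyloid Hom and 13.6 ± 2.37 CPM in amyloid Hom mice. With the mean log2 CPM of these markers as a covariate, *Tlr2* alone of the 10 members was called between the cohorts. Its log2 fold change was then 1.15 in WT mice (adjusted p = 0.0206) and 1.29 in Hom mice (adjusted p = 2.63e-06), while 0.165% and 0.795% of all genes were called. The other 9 members lay between 0.05 and 0.59 in WT mice and between -0.33 and 0.61 in Hom mice. Without the covariate 7.95% and 6.56% of all genes were called in either direction. The marker level did not overlap between the cohorts in either genotype, so this fit cannot tell that level apart from cohort. Markers of border macrophages and monocytes showed no call among 6 genes, with summed levels of 8.88 to 18.9 CPM in non-amyloid WT and 11.4 to 20.8 CPM in amyloid WT libraries. Neutrophil markers had a median summed level of 0.341 CPM in non-amyloid WT mice, where 1 library reached 20.1 CPM, and of 0.476 CPM in amyloid WT mice, and 1 of the 3 tested was called lower in amyloid WT mice. Astrocyte markers, of which 2 of 5 were called higher, summed to 1060 to 1349 CPM in non-amyloid WT and 1543 to 2858 CPM in amyloid WT libraries. Of 5 endothelial markers 1, *Cldn5*, was called higher (log2 0.47 ± 0.15). Of the lymphocyte markers *Cd79a* and *Cd3e*, the T cell gene *Cd3e* was called higher (2.60 ± 0.54), at no more than 0.218 CPM in any amyloid WT library. The part of these cell types in the differences of the members was not tested, and for microglia the covariate could not decide it. None of the markers in these lists was at 0 in every library of a group.

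**Figure D3:**
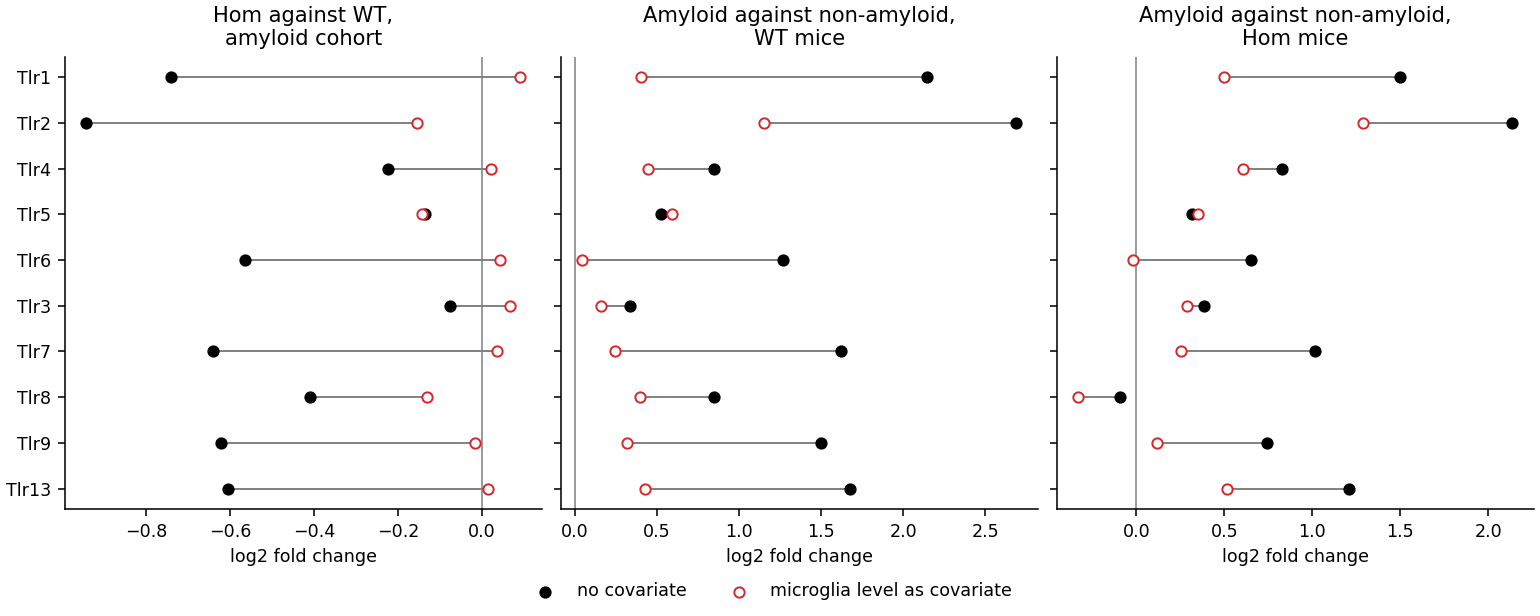
Log2 fold change of each member (x axis) without a covariate (black) and with the mean log2 CPM of 10 microglia markers as a covariate (open red). In the amyloid genotype comparison the values move to between -0.15 and 0.09, and in the cohort comparisons *Tlr2* stays above 1.1. The marker level did not overlap between the cohorts, so in the cohort comparisons it cannot be told apart from cohort.

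The comparison of genotypes asked whether H157Y homozygosity goes with a difference in these transcripts. In the amyloid cohort all 10 members had lower estimates in Hom mice, but none passed the test. Their log2 fold changes had a median of -0.58, and those of all genes a median of 0.00. Of all genes, 0.0753% (16 genes) were called. At an unadjusted p under 0.05, 6 members were lower, *Tlr1*, *Tlr2*, *Tlr6*, *Tlr7*, *Tlr9* and *Tlr13*, against 5.77% of all genes. DESeq2 called 2 members, *Tlr1* and *Tlr2*, and 1.41% of all genes. No member separated the genotypes without overlap, and 0.00941% of all genes did so with Hom mice lower.

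*Tlr2* came nearest to the threshold. Its CPM was 5.40, 7.87 and 14.8 (lowest, median and highest) in amyloid WT mice and 3.02, 4.21 and 7.21 in amyloid Hom mice. All 10 Hom libraries lay below the WT median and 7 of them below the lowest WT library, although the groups overlapped. The log2 fold change was -0.94 ± 0.21 (adjusted p = 0.0567). It was called when amyloid Hom replicate 3 (adjusted p = 0.0392), WT replicate 13 (0.0250) or WT replicate 22 (0.0371) was left out, and not without amyloid Hom replicate 19 (0.0853). Over the 20 fits that each left out a library its adjusted p ran from 0.0250 to 0.126. *Tlr1* had CPM of 1.5, 2.71 and 4.05 in WT and 0.795, 1.59 and 2.79 in Hom mice (log2 -0.74 ± 0.22, adjusted p = 0.131), and *Tlr6* was at -0.56 ± 0.19 (adjusted p = 0.222). *Tlr4* (-0.22 ± 0.14) and *Tlr5* (-0.14 ± 0.17) lay within 2 SE of 0.

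Among the endosomal members, *Tlr7* had CPM of 7.79, 13 and 19.9 in amyloid WT and 5.13, 8.13 and 13.6 in amyloid Hom mice, and 5 of 10 Hom libraries were below all WT libraries. *Tlr13* had 7.01, 11.3 and 16.5 against 4.14, 6.70 and 12.5. *Tlr9* had 1.32, 1.93 and 3.67 against 0.920, 1.45 and 2.21. Their groups overlapped, and the log2 fold changes were -0.64 ± 0.20, -0.60 ± 0.20 and -0.62 ± 0.19 (adjusted p = 0.163, 0.196 and 0.144). *Tlr3* was at -0.08 ± 0.08 and *Tlr8* at -0.41 ± 0.31.

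The number of genotype calls in the amyloid cohort differed between fits. With sex as a covariate, *Tlr1*, *Tlr2*, *Tlr7* and *Tlr13* were called lower in Hom mice (log2 -0.74, -0.93, -0.63 and -0.65, adjusted p = 0.0213, 0.00371, 0.0152 and 0.0129), and 1.18% of all genes were called. With sex as a covariate and without amyloid Hom replicate 19, *Tlr6* was called as well, making 5, and 0.941% of all genes were called. When all 40 libraries were fitted together, 6 members were called and 2.88% of all genes. All 10 microglia markers were also lower in amyloid Hom mice, 9 of them at an unadjusted p under 0.05 and none called, and their summed level ran from 521.7 to 884 CPM against 632 to 1434 CPM in amyloid WT mice. Astrocyte markers were lower at an unadjusted p under 0.05 for 2 of 5, *Gfap* (log2 -0.95 ± 0.24) and *Aqp4* (-0.32 ± 0.12), with none called. All 6 border macrophage and monocyte markers had lower estimates, 2 of them at an unadjusted p under 0.05 and none called. The part of the astrocyte list and of the border macrophage and monocyte list in the differences of the members was not tested. With the mean log2 CPM of the microglia markers as a covariate no member was called, and the 10 log2 fold changes lay between -0.15 and 0.09.

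In the non-amyloid cohort no member was called between genotypes (edgeR; DESeq2 also 0), and 0.0329% of all genes were. *Tlr2* had CPM of 0.999, 1.32 and 1.68 in WT and 0.653, 1.02 and 1.36 in Hom mice, with 9 of 10 Hom libraries below the WT median. No member separated these groups, and 0.0188% of all genes did with Hom mice lower. Its log2 fold change was -0.39 ± 0.13 (unadjusted p = 0.00535, adjusted p = 0.965 by edgeR), the only member with an unadjusted p under 0.05, as had 4.61% of all genes. The other 9 lay between -0.20 and 0.54. Of the 10 microglia markers none had an unadjusted p under 0.05 here, and with their level as a covariate *Tlr2* was at -0.39 (adjusted p = 0.696).

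The interaction of genotype and cohort, which tests whether the genotype difference differed between cohorts, was called for no member by edgeR or DESeq2. At an unadjusted p under 0.05 it was lower for 6 members, *Tlr1*, *Tlr2*, *Tlr6*, *Tlr7*, *Tlr8* and *Tlr9*, against 5.54% of all genes. *Tlr9* had the lowest p, with an interaction of log2 -0.76 ± 0.23 (adjusted p = 0.186), and for *Tlr2* it was -0.55 ± 0.25 (adjusted p = 0.454). The 4 contrasts share libraries, so that their values stand side by side and are not independent of each other.

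Females had higher levels of 3 members in the amyloid cohort. *Tlr2*, *Tlr7* and *Tlr13* were called higher in females with genotype as a covariate, against 0.202% of all genes, and 7 members were higher at an unadjusted p under 0.05, against 6.0% of all genes. *Tlr13* had 7.01, 7.18, 9.76, 11.1 and 11.7 CPM in the amyloid WT males and 10.4, 11.6, 12.4, 16.1 and 16.5 in the WT females. In amyloid Hom mice it had 4.14, 5.09, 5.49, 5.51 and 6.12 CPM in males and 7.28, 7.83, 9.49, 11.4 and 12.5 in females. Every Hom female lay above every Hom male, and 0.508% of all genes separated these groups in that direction. No other member did so in Hom mice and none did in WT mice, where 0.593% of all genes did. Whether the sexes differed more in Hom than in WT mice is given by the interaction of genotype and sex, which for *Tlr13* was 0.36 ± 0.25 on the log2 scale (adjusted p = 0.817 by edgeR). The log2 difference between females and males was 0.70 ± 0.13 (adjusted p = 0.0210).

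*Tlr7*, also X-linked, had 7.79, 8.18, 10.1, 12 and 13.6 CPM in amyloid WT males and 12.5, 14.9, 19, 19.5 and 19.9 in WT females. In amyloid Hom mice it had 5.13, 5.99, 6.63, 7.52 and 8.65 CPM in males and 7.60, 8.78, 10.8, 13.5 and 13.6 in females. The sexes overlapped in both genotypes, and the log2 difference was 0.71 ± 0.13 (adjusted p = 0.0210). *Tlr2*, which is autosomal, had means of 5.02 CPM in the 10 amyloid males and 8.30 CPM in the 10 amyloid females (log2 0.71 ± 0.15, adjusted p = 0.0393). These calls were close to the threshold. Over 20 fits that each left out a library, *Tlr13* was called in 14, *Tlr7* in 12 and *Tlr2* in 6. No member was called without amyloid Hom replicate 10 or 34 or amyloid WT replicate 13, 22 or 32. A single member was called without amyloid Hom replicate 3 or 16 or amyloid WT replicate 12 or 27, and 4 were called without amyloid Hom replicate 19. Without replicate 19, 89 of all genes were called in either direction, against 51 with all libraries.

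DESeq2 called 5 members higher in amyloid females, *Tlr1*, *Tlr2*, *Tlr6*, *Tlr7* and *Tlr13*, and 1.18% of all genes. All 10 microglia markers had higher estimates in amyloid females (median log2 0.38), 8 of them at an unadjusted p under 0.05 and none called. Of 5 astrocyte markers *Gfap* was called higher in females (0.83 ± 0.17, adjusted p = 0.0377) and *Aqp4* was higher at an unadjusted p under 0.05. All 3 neutrophil markers tested were lower in females at an unadjusted p under 0.05, with a median log2 difference of -1.21 and none called. The part of astrocyte and neutrophil markers in the sex differences of the members was not tested. With the microglia markers' level as a covariate, the sex differences of *Tlr13* and *Tlr7* were 0.41 and 0.39 on the log2 scale, *Tlr2* was at 0.20, and no member was called. In the non-amyloid cohort no member was called between the sexes by either tool, while 0.122% of all genes were. *Tlr13* had a log2 difference of 0.30 ± 0.11 (unadjusted p = 0.0137, adjusted p = 0.644 by edgeR) and was the only member with an unadjusted p under 0.05, as had 6.59% of all genes. Whether the sex difference differed between cohorts was not tested. The interaction of genotype and sex in the amyloid cohort was called for no member by edgeR or DESeq2, and none had an unadjusted p under 0.05, against 5.29% of all genes.

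**Figure D4:**
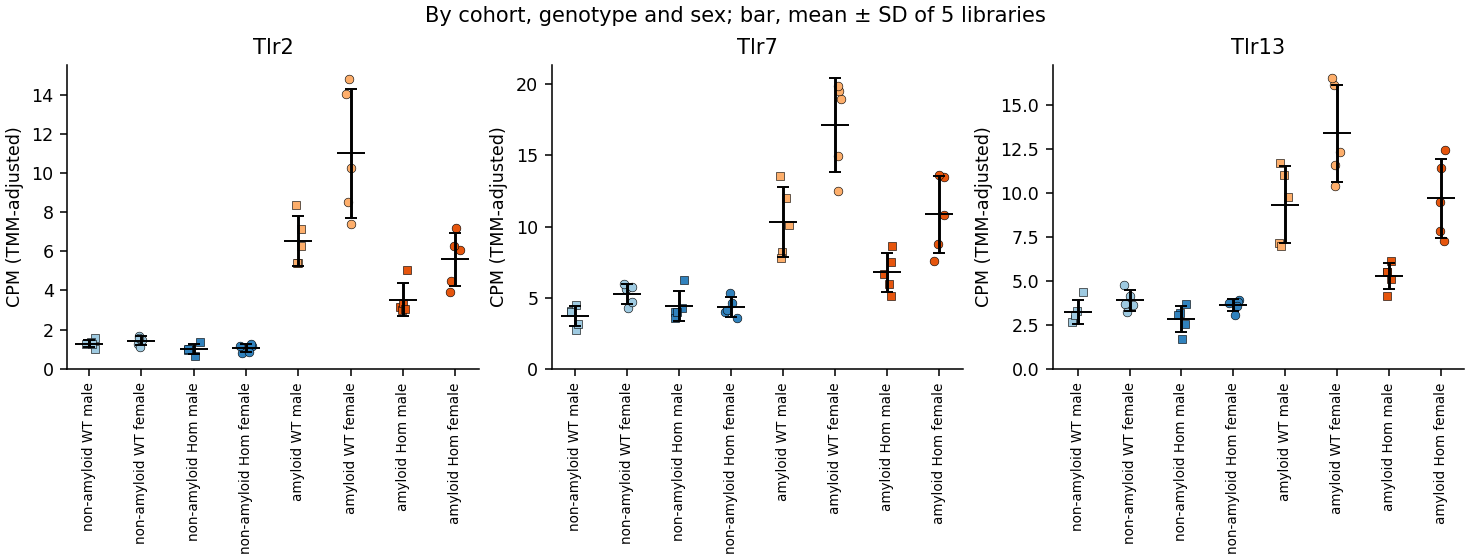
CPM of *Tlr2*, *Tlr7* and *Tlr13* (y axis, linear, from 0) by cohort, genotype and sex; squares are males, circles females, and bars the mean ± SD of 5 libraries. In amyloid Hom mice the *Tlr13* females (7.28 to 12.5 CPM) lie above all males (4.14 to 6.12 CPM).

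Across the 40 libraries, after the 4 group means were subtracted, the members fell into those that varied together and those that did not. These correlations of log2 CPM share libraries and depth and are given as a description. Sex was not subtracted, so that the differences between females and males given above are part of them. The highest was between the X-linked endosomal genes *Tlr7* and *Tlr13* (Pearson r = 0.753, n = 40), and *Tlr1* with *Tlr7* (0.749), *Tlr2* with *Tlr7* (0.736) and *Tlr1* with *Tlr2* (0.706) followed. The pairing did not follow location in the cell: the median r was 0.439 over the 25 pairs of a surface with an endosomal gene, 0.345 over the 10 surface pairs and 0.284 over the 10 endosomal pairs. *Tlr4* and *Tlr3* correlated with each other (0.679) but little with the mean of the microglia markers (0.225 and 0.192). *Tlr1*, *Tlr2*, *Tlr6*, *Tlr7*, *Tlr9* and *Tlr13* correlated with that mean at 0.608 to 0.755. *Tlr5* and *Tlr8*, both thinly counted, were at -0.04 and 0.12.

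Over all 21253 genes tested, those most like *Tlr1* were *Lyz2* (r = 0.900) and *Nckap1l*, and those most like *Tlr2* were *Ctss* (0.875), a lysosomal protease, *B2m* and *Mpeg1*. *Tlr7* was most like *Gpr34* (0.864), *C3ar1* and *Cd53*, and *Tlr13* like *Havcr2* (0.885), *Pik3cg* and *Cd84*. *Tlr6* was most like the fractalkine receptor *Cx3cr1* (0.774), *Gal3st4* and *I830012O16Rik*, and *Tlr9* like complement *C4b* (0.743), *Slco2b1* and *Nfam1*. *Tlr3* was most like *Lamp2* (0.857), *Nampt* and *Sh3glb1*, and *Tlr4* like *Tnpo1* (0.799), *Ptbp3* and *Avl9*. *Tlr5* (*Cd59b*, *Pxdc1*, *Mir7673*) and *Tlr8* (*Pard3b*, *Gm13689*, *Olfr558*) had no gene above 0.685.

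**Figure D5:**
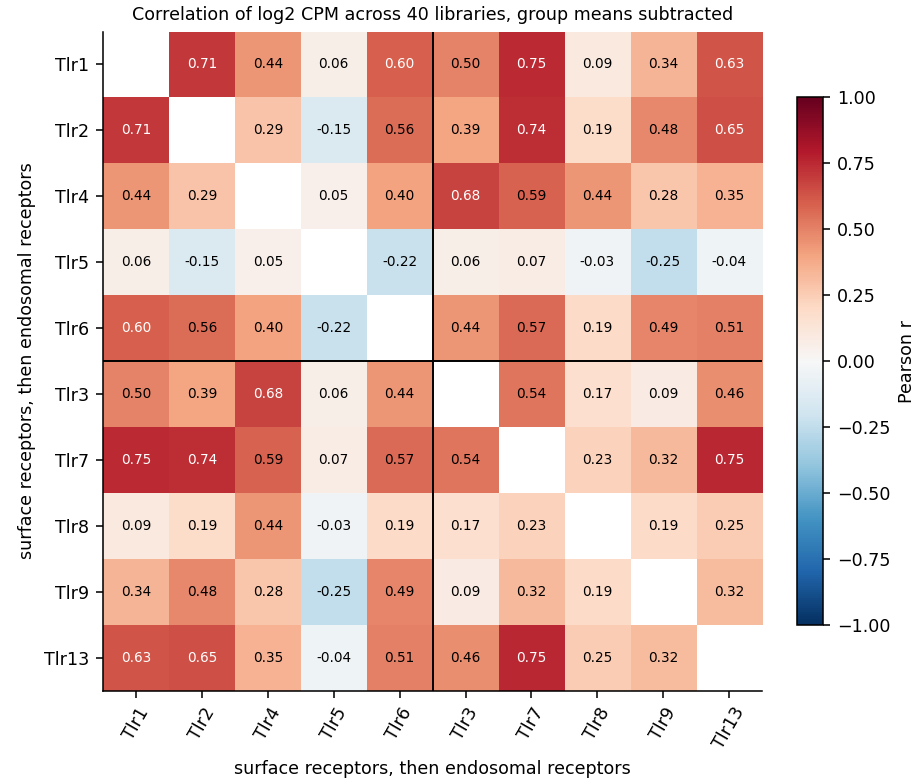
Pearson r of log2 CPM between members over 40 libraries after subtraction of the 4 group means; lines divide surface from endosomal genes. The pairs among *Tlr1*, *Tlr2*, *Tlr7* and *Tlr13* run from 0.630 to 0.753, *Tlr4* with *Tlr3* is at 0.679, and *Tlr5* has values down to -0.25 (with *Tlr9*). Without amyloid Hom replicate 19 that value is -0.085, and the lowest of *Tlr5* is -0.16 (with *Tlr2*).

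The genes that serve the receptors were followed from fixed lists, whose counts stand beside 6.62% of all genes called higher between the WT cohorts. Of the remaining mouse family genes, *Tlr12* rose between the WT cohorts (log2 1.51 ± 0.20, adjusted p = 2.13e-07) and was at -0.69 ± 0.21 between the amyloid genotypes (adjusted p = 0.168), while *Tlr11*, at 0 to 9 counts, was not tested. No gene of the lists was called between genotypes in the amyloid cohort, so the values given for that comparison are estimates that did not pass the test. Of 10 accessory receptors and chaperones, 5 rose between the WT cohorts and none fell. They included *Cd180* (2.47 ± 0.21), *Cd14* (2.11 ± 0.17), *Ly86* (2.08 ± 0.16), the partner of CD180, and *Unc93b1* (1.02 ± 0.14), which carries nucleic-acid receptors to endosomes. Between the amyloid genotypes the same 4 genes were at -0.72, -0.63, -0.79 and -0.52, with adjusted p from 0.0797 to 0.259. *Cd14*, the lipopolysaccharide co-receptor, had CPM of 1.20, 1.72 and 2.13 in non-amyloid WT mice and 4.0, 6.25 and 11.4 in amyloid WT mice, with no overlap.

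Of the 5 TIR adaptors, 4 rose between the WT cohorts: *Ticam2* (1.5 ± 0.17), *Myd88* (0.68 ± 0.10), *Ticam1*, which encodes TRIF (0.36 ± 0.12), and *Tirap* (0.35 ± 0.09). In Hom mice *Ticam2* alone of the 5 was called (0.83 ± 0.17, adjusted p = 0.000983). Of 15 kinases and ligases, 2 rose between the WT cohorts, *Ikbke* (0.39 ± 0.13) and *Ripk1* (0.31 ± 0.07), against 6.62% of all genes, and the median of the list was 0.06. Of 8 transcription factors, 4 rose: *Irf7* (1.89 ± 0.27), *Irf8* (1.77 ± 0.13), *Irf5* (1.42 ± 0.28) and *Nfkb2* (0.64 ± 0.16). *Irf8*, a myeloid factor, was at 8.03, 11.7 and 22.6 CPM in amyloid WT and 5.30, 7.77 and 9.93 CPM in amyloid Hom mice, with overlapping groups (log2 -0.75 ± 0.16, adjusted p = 0.0554). *Irf7* was at -1.23 ± 0.33 between the same groups (adjusted p = 0.0974). Its CPM was 1.33, 2.55 and 9.98 (lowest, median and highest) in amyloid WT and 0.638, 1.59 and 2.34 in amyloid Hom mice. Of 8 negative regulators, 2 rose between the WT cohorts, *Pik3ap1* (1.37 ± 0.14) and *Irak3* (0.39 ± 0.13), and the median of the list was 0.00.

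Of 9 cytokine and chemokine targets, 7 were tested and 5 rose between the WT cohorts. *Ccl3*, which encodes a chemokine, had CPM of 0 to 0.266 in non-amyloid WT mice and 3.71 to 14.4 in amyloid WT mice (log2 5.87 ± 0.34, adjusted p = 8.88e-17). *Ccl4* rose by 4.64 ± 0.35, *Cxcl10* by 3.19 ± 0.43 and *Il1b* by 1.14 ± 0.20 on the log2 scale. Between the amyloid genotypes 6 of the 7 had lower estimates, 5 of them at an unadjusted p under 0.05. Of all genes, 49.6% had lower estimates and 5.77% were lower at an unadjusted p under 0.05. *Ccl3* was at -1.09 ± 0.24 (adjusted p = 0.0555), *Cxcl10* at -1.37 ± 0.44 (adjusted p = 0.192), *Ccl4* at -0.75 ± 0.24 (adjusted p = 0.197) and *Il1b* at -0.62 ± 0.18 (adjusted p = 0.135). The CPM of *Cxcl10* was 0.447, 1.20 and 6.36 (lowest, median and highest) in amyloid WT and 0.171, 0.802 and 1.42 in amyloid Hom mice. *Il12b* and *Ifnb1* did not pass the filter on low counts.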

How the data were processed

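Cortical polyadenylated RNA was sequenced as paired-end reads from 40 mice. The values the authors deposited are raw counts per gene, whole numbers with no normalization. The paper names TopHat and Bowtie for alignment, whereas the submitters' processing notes name STAR 2.5.2b, featureCounts 1.5.1 and mm10; this difference was not resolved. The strand setting of counting is not given in the sources used here, which bears on genes overlapped by a gene of the opposite strand. No column of per-sample values was left unused.

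Counts were analysed with edgeR 4.0.16 as the main tool. DESeq2 1.42.0 and limma 3.58.1 served as alternatives, all under R 4.3.3, and Python 3.11.15 was used for summaries. Sequences were compared with BLAST+ 2.17.0. A gene was kept when 4 or more libraries had 10 or more counts of it, TMM factors were applied, and groups were compared by edgeR's quasi-likelihood test. Genotype was fitted within each cohort, cohort and the interaction over 40 libraries, and sex with genotype as a covariate. Genes were called at a Benjamini-Hochberg adjusted p under 0.05 over all genes tested and an absolute log2 fold change over 0.25. SE values are those implied by the F statistic. CPM uses TMM-adjusted library sizes, and log2 CPM a prior count of 2. Named genes were the 10 members, *Trem2*, up to 4 genes of each list called in either the amyloid genotype or the WT cohort comparison (otherwise the gene of lowest p), and the 3 genes most like each member. The members and lists were chosen with earlier results of these data known. The tests were checked on simulated data. Mice were separate animals, and p-values measure the spread between them. The paper left out an amyloid Hom female for a low percentage of gene counts and for its strand check, without naming it. Amyloid Hom replicate 19, also a female, had the lowest total count and the highest share of counts on genes covered by opposite-strand exons. It may be that library, but the sources do not say so. All 40 libraries were kept in the main fits, and fits without replicate 19 served as alternatives. Some items, a gene like *Tlr1* and some marker genes among them, are not reported here.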

Additional observations from a re-analysis of the deposited data

Results flagged for a closer look

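In the 40 sets of 10 libraries formed by the 10 members and 4 groups, 1 library stood far from the others. *Tlr4* was at 5.77 CPM in amyloid WT replicate 8, while the next highest library of that group was at 4.17 CPM. The gap was 0.548 of the group's range, past the 95% critical value of Dixon's test. Chance sets apart about 1 in 20 such groups.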

How the results depend on the processing

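Settings were changed singly, except that sex as a covariate was also combined with leaving out amyloid Hom replicate 19. The number of members called between the amyloid genotypes was 0 in the report. It was 2 with DESeq2, 1 with filterByExpr and 6 with all 40 libraries fitted together. It was 4 with sex as a covariate and 5 with sex as a covariate and without amyloid Hom replicate 19. The share of all genes called was 0.0753% in the report. In these 5 fits it was, in the same order, 1.41%, 0.344%, 2.88%, 1.18% and 0.941%. Leaving out each library gave 0 to 1 members. With the microglia marker level as a covariate, the counts between cohorts fell from 9 to 1 in WT mice and from 8 to 1 in Hom mice. Those of all genes fell from 1689 to 35 in WT mice and from 1395 to 169 in Hom mice. The marker level did not overlap between the cohorts in either genotype, so between cohorts it cannot be told apart from cohort. That covariate turned the direction, between the amyloid genotypes, of *Tlr1* (0.092), *Tlr3* (0.067), *Tlr4* (0.022), *Tlr6* (0.042), *Tlr7* (0.037) and *Tlr13* (0.014), between the Hom cohorts of *Tlr6* (-0.017), and in the interaction with cohort of *Tlr1* (0.10), *Tlr2* (0.14), *Tlr4* (0.17), *Tlr7* (0.011) and *Tlr13* (0.083). For amyloid females against males it left 0 members called and *Tlr3* at -0.0086, while DESeq2 called 5 and leaving out each library gave 0 to 4. Of all genes, 51 were called between the sexes in the report, 13 with that covariate and 251 with DESeq2. limma-voom turned *Tlr8* between the Hom cohorts (0.022) and *Tlr4* in the interaction with cohort (0.073). Leaving out each library moved *Tlr7* between the non-amyloid genotypes from -0.10 to 0.021, *Tlr8* between the Hom cohorts from -0.19 to 0.10, and *Tlr4* in the interaction with cohort from -0.090 to 0.059. In the interaction of genotype and sex it moved *Tlr1* from -0.12 to 0.14, *Tlr2* from -0.20 to 0.074, *Tlr3* from -0.11 to 0.027, *Tlr6* from -0.012 to 0.28, *Tlr7* from -0.17 to 0.056 and *Tlr8* from -0.11 to 0.40. The cause of these changes was not tested. Leaving out each library in both sex comparisons, and the microglia covariate for sex, were chosen after seeing the data. Without a filter on low counts the call of *Tlr5* between the WT cohorts was lost (adjusted p = 0.0677), and 3 to 47 counts per library limit *Tlr8*. No paired analysis was possible because the labels give no litter or other pairing of the mice. Litter was therefore not part of any fit, although the mice were littermates within a cohort.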
